A study of Mus musculus with 8 samples.

Results

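The MS4A genes examined here in mouse macrophages (Mϕ) were Ms4a4a, Ms4a4b, Ms4a4c, Ms4a4d, Ms4a6b, Ms4a6c, Ms4a6d and Ms4a7. They were picked by name, as the rows whose Ensembl identifier carries 1 of these symbols in the mouse GENCODE annotation, and all 8 were found among the 55359 genes listed. Total RNA was sequenced in 4 groups of bone-marrow-derived Mϕ (BMDMs) with 2 samples each, to ask how the uptake of apoptotic cells (efferocytosis) alters the response to an inflammatory stimulus. Ctrl were naïve BMDMs without further treatment, and LPS were naïve BMDMs stimulated for 6 h with LPS (100 ng/mL) plus IFNγ (100 U/mL). Eff were efferocytic BMDMs, which had been co-cultured for 16 h with apoptotic fibroblasts at 5 fibroblasts per Mϕ, and LPSEff were efferocytic BMDMs that were washed and then received the same LPS/IFNγ stimulus for 6 h. The fibroblasts were a single clone of the NIH-3T3 caspase-8 activatable (CA) mouse line and were made apoptotic with 10 nM of a dimerizer drug. The dimerizer (10 nM) was kept in the medium during the 16 h co-culture, so that the Mϕ of Eff and LPSEff were exposed to it as well. All BMDMs came from adult male and female C57BL/6 wild-type mice, were grown with M-CSF and GM-CSF (20 ng/mL each) and were sorted with beads for CD45, a surface protein of blood cells. Cells of all 4 groups had therefore seen GM-CSF, and the labels do not say whether the Ctrl and LPS cultures received dimerizer or whether same-numbered samples came from the same animals.

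MS4A proteins cross the membrane several times and assemble with other receptors at the cell surface, where several of them tune signalling. The founding members are CD20 (Ms4a1) of B cells and the β chain of the high-affinity IgE receptor of mast cells (Ms4a2). Several relatives are made by Mϕ and microglia, and variation at the human locus has been tied to Alzheimer's disease and to the level of soluble TREM2, a microglial lipid receptor. In mice the family has expanded, so that several close copies of the 4A and 6A types lie side by side.

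The 8 genes lay on chromosome 19 of GRCm39, between positions 11298403 and 11582213, a span of 283.8 kb. In order they were Ms4a7, Ms4a4a, Ms4a4c, Ms4a4b, Ms4a6c, Ms4a6b, Ms4a4d and Ms4a6d, with the 6 inner genes on the plus strand and the outer pair, Ms4a7 and Ms4a6d, on the minus strand. Coding sequences were aligned over their whole length, and gaps were counted as positions that differ. On this measure those of Ms4a4b and Ms4a4c were identical at 90.1% of positions. The figure was 85.7% for Ms4a4c and Ms4a4d and 82.4% for Ms4a4b and Ms4a4d. Ms4a4a stood further off, at 59.0% to 59.9% identity with these 3. Within the 6A type, Ms4a6b matched Ms4a6d at 80.1% and Ms4a6c at 76.3%, and Ms4a6c matched Ms4a6d at 68.6%. The coding sequence of Ms4a6c is shorter, with 666 bases against 732 in Ms4a6b and 741 in Ms4a6d. Gaps therefore lower the figures of Ms4a6c, and they do not rank how alike the paired bases are. The reads had up to 50 bases, and of all 50-base stretches in the transcripts of Ms4a4c 7.44% were also present in other genes, among them Ms4a4b and Ms4a4d. This share was 4.96% for Ms4a4d, 4.51% for Ms4a6c, 3.89% for Ms4a4b, 3.48% for Ms4a6b, 2.77% for Ms4a6d, 0.432% for Ms4a7 and 0% for Ms4a4a, so that reads in these stretches could not be assigned to a single copy.

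Promoter sequences from RefSeq (build GRCm38.p6, whose positions differ from those given above) were matched for 7 of the 8 genes, with 2 start sites for Ms4a7. The gene without a window was Ms4a6d, whose promoter was not examined. The 250 bases upstream of the start are shown for Ms4a6b (chr19:11518309-11518558), Ms4a6c (chr19:11469118-11469367), Ms4a4b (chr19:11443308-11443557) and Ms4a4c (chr19:11407411-11407660), all on the plus strand, because each pair holds close copies of which both rose with LPS/IFNγ. Capitals mark matches, on either strand, to GAAANNGAA, the core of interferon response elements, and to AGGAAGT, a core bound by PU.1 and other Ets factors.
Ms4a6b: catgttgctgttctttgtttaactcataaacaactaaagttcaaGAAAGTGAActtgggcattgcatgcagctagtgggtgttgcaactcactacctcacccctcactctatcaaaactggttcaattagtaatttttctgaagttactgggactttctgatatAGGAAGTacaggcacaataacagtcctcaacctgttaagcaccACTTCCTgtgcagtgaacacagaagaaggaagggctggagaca
Ms4a6c: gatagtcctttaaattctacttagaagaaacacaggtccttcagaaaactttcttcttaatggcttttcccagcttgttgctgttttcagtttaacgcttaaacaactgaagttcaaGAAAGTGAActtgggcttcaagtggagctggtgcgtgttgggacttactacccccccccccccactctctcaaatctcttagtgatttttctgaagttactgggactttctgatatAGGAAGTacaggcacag
Ms4a4b: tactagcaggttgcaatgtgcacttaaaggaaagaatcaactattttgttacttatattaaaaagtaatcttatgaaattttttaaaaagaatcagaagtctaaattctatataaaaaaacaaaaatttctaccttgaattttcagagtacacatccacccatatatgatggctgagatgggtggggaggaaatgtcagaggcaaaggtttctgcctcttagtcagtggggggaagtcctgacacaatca
Ms4a4c: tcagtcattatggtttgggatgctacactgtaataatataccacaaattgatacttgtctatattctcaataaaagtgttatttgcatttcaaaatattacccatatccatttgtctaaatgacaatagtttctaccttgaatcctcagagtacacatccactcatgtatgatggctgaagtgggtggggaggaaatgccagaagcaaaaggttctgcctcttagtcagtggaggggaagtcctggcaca
After alignment, and here with gaps left out, the windows of Ms4a6b and Ms4a6c were identical at 85.1% of 175 aligned bases. Those of Ms4a4b and Ms4a4c were identical at 78.9% of 232. The windows of Ms4a6b and Ms4a6c both held GAAAGTGAA. It lay 206 to 198 bases before the start in Ms4a6b and 133 to 125 bases before it in Ms4a6c. Ms4a6b held AGGAAGT at 86 to 80 bases before the start and again, on the other strand, at 43 to 37 bases, and Ms4a6c held it at 17 to 11 bases. The windows of Ms4a4b and Ms4a4c had no match to either. Only 1 start was searched for each of them, although they have 15 and 6 annotated transcripts. Among the 8 windows of the family, 4 had a match to GAAANNGAA (Ms4a6b, Ms4a6c and both starts of Ms4a7), 2 to AGGAAGT and 1 to the NF-κB motif (Ms4a4a). Of 32841 windows of the same length over all genes, 7.13% held GAAANNGAA, 7.69% AGGAAGT and 7.25% the NF-κB motif. The matched stretches of the different motifs did not overlap each other in these windows, and a match describes letters only.

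Values are normalized counts, that is reads per gene divided by 1 size factor per sample, from libraries of 3481288 to 12020918 reads, in which 3 reads were worth 1.735 to 5.713 normalized counts. Differences are given on the log2(normalized count + 1) scale, which understates changes of low genes, with their SE and adjusted p from limma (Benjamini-Hochberg over the 16309 genes that averaged at least 10 normalized counts, n = 2 per group). Of the 8 MS4A genes 7 were tested, and Ms4a4d was not. Ms4a4b (mean 12.2) and Ms4a4c (mean 184) passed this filter only through their LPS and LPSEff samples, so that these 2 had to differ and their adjusted p in the LPS/IFNγ contrasts is no independent evidence. The cells carried Mϕ markers at a summed level of 108860 to 164150 normalized counts over 10 genes. In bulk samples, fewer cells of a type and less RNA per cell cannot be told apart.

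**Figure D1:**
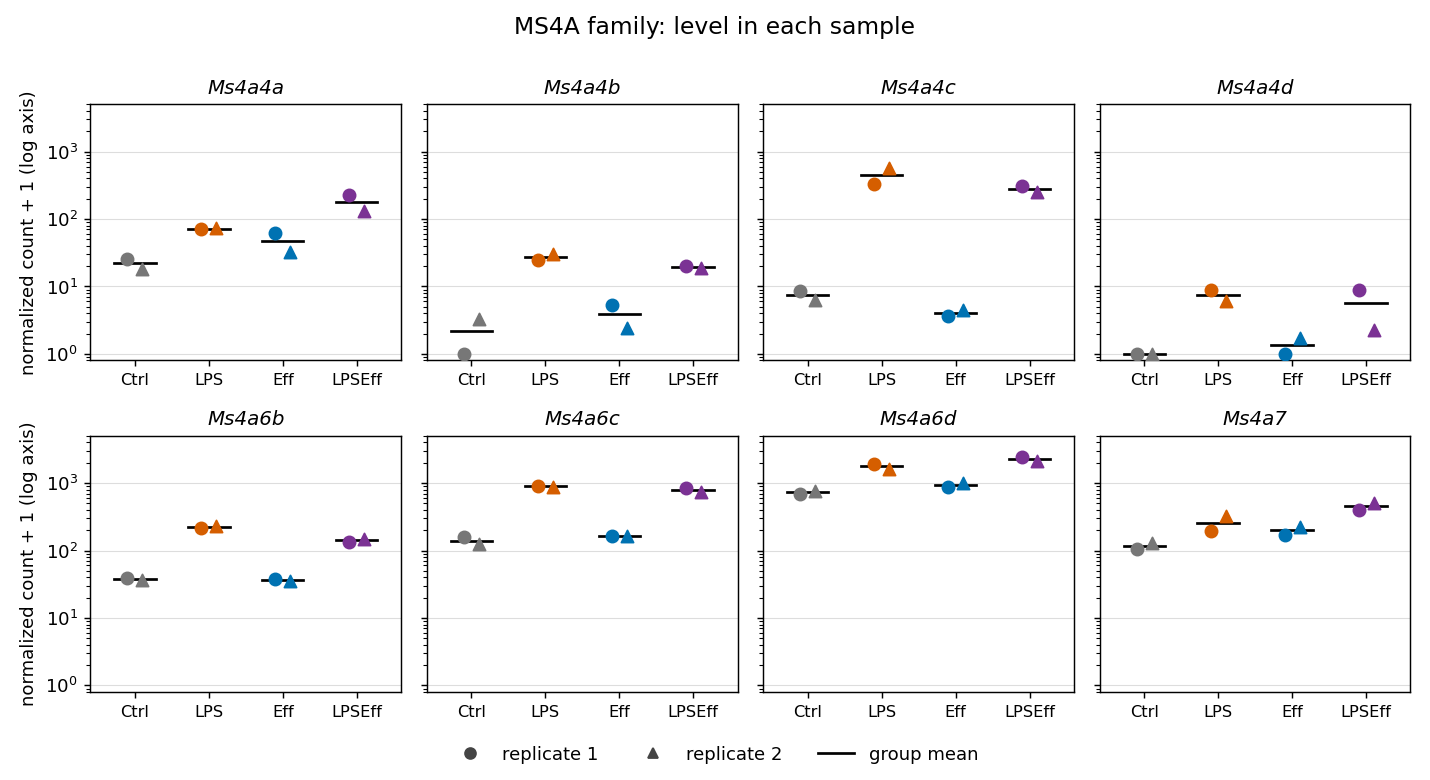
Level of the 8 MS4A genes in each sample. The y axis is the normalized count + 1 on a log axis, the x axis gives the groups, circles and triangles are replicate 1 and replicate 2, and bars are group means. All LPS/IFNγ samples lie above all unstimulated samples for every gene but Ms4a7, where Eff 2 lies above LPS 1. How many of all genes separate in this way was not counted. The gap is narrow for Ms4a4a and Ms4a4d, and Ms4a4d is close to 1 in all unstimulated samples. For Ms4a4d, LPSEff 2 and Eff 2 hold 1 read each.

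The MS4A genes were expressed at very different levels, and Ms4a6d led in every group. Levels between genes were compared per kb of exon. In Ctrl, Ms4a6d had 419 ± 26.2 normalized counts per kb (SD, n = 2), against 28.5 ± 4.76 for Ms4a6c and 25.8 ± 3.88 for Ms4a7, whose samples overlapped. Ms4a4a followed with 14.8 ± 3.68 per kb, Ms4a6b with 8.13 ± 0.440 and Ms4a4c with 3.46 ± 0.920, and these neighbours in the order did not overlap. Ms4a4b (0.120 ± 0.169 per kb) and Ms4a4d (listed at 0 in both samples) were at the end. Ms4a6d thus made up 82.5% and 85.1% of the family's summed level per kb in the 2 Ctrl samples.

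LPS/IFNγ changed this order. In LPS, Ms4a6d reached 1021 ± 109 per kb, and Ms4a4c moved up to 243 ± 88.5 per kb, a level that overlapped that of Ms4a6c (183 ± 6.20). Ms4a7 (57.9 ± 20.3 per kb), Ms4a4a (49.8 ± 1.12) and Ms4a6b (49.2 ± 2.68) overlapped each other, with Ms4a4b (2.73 ± 0.452) and Ms4a4d (1.77 ± 0.524) below. In Eff the order was Ms4a6d (542 ± 49.9 per kb), Ms4a7 (44.5 ± 8.61), then Ms4a6c (33.5 ± 0.248) and Ms4a4a (32.4 ± 14.3) with overlapping samples, and then Ms4a6b (7.91 ± 0.349), Ms4a4c (1.66 ± 0.343), Ms4a4b (0.30 ± 0.218) and Ms4a4d (0.0975 ± 0.138), the last pair with overlapping samples. In LPSEff, Ms4a6d stood at 1313 ± 103 per kb. The next 4, Ms4a6c (160 ± 14.7 per kb), Ms4a4c (149.5 ± 21.7), Ms4a4a (126 ± 49.3) and Ms4a7 (101 ± 17.4), each overlapped their neighbour, and Ms4a6b (31.2 ± 2.87), Ms4a4b (1.90 ± 0.0903) and Ms4a4d (1.27 ± 1.30) followed. With the longest transcript in place of all exons as the length, Ms4a6c stood above Ms4a4c in LPS and above Ms4a7 in Eff. That length moved 17 of the 32 levels by more than their SD, for example Ms4a6c from 28.5 to 48.6 per kb in Ctrl and from 183 to 312 in LPS, and Ms4a4b from 2.73 to 5.24 in LPS.

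**Figure D2:**
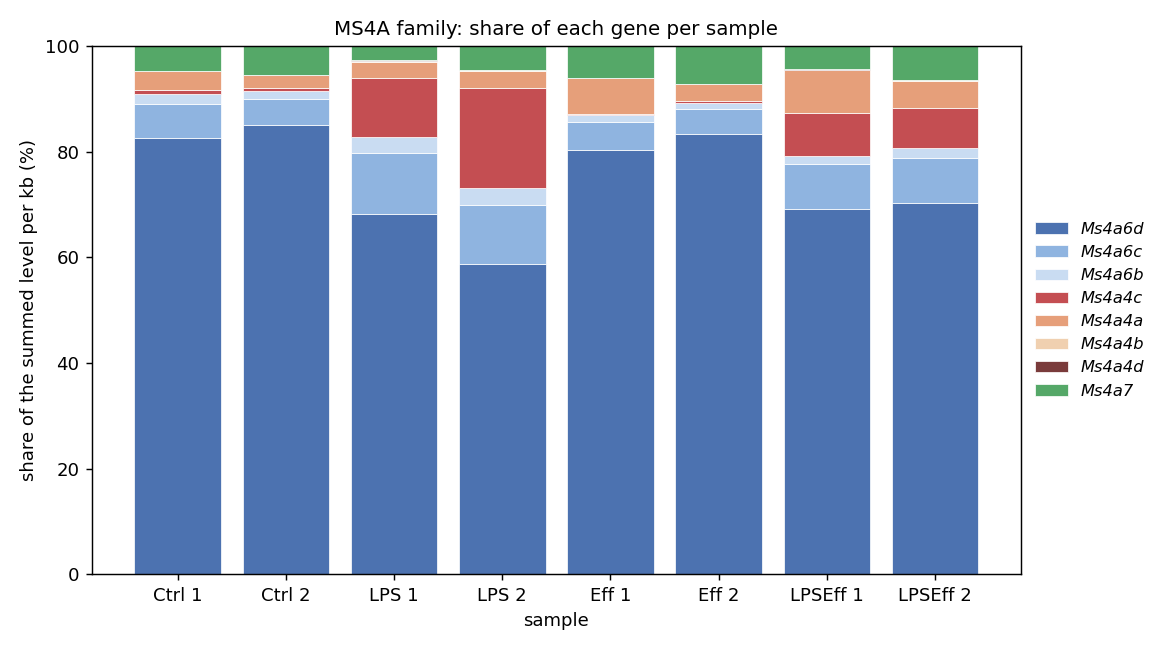
Share of each MS4A gene in the family's summed level per kb of exon, in percent, for each of the 8 samples. Ms4a6d holds 80.3% to 85.1% in the 4 unstimulated samples and 58.8% to 70.3% in the 4 samples with LPS/IFNγ, where Ms4a4c takes 7.61% to 19%.

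The family's make-up moved with the stimulus in every sample. The share of Ms4a6d per kb was 68.2% and 58.8% in LPS, 80.3% and 83.3% in Eff, with 69.2% and 70.3% in LPSEff. Ms4a4c went from 0.846% and 0.546% in Ctrl to 11.2% and 19% in LPS, and from 0.225% and 0.275% in Eff to 8.23% and 7.61% in LPSEff. The share of Ms4a4a was 3.58% and 2.37% in Ctrl, 3.05% and 3.15% in LPS, 6.73% and 3.22% in Eff, with 8.02% and 5.16% in LPSEff. Together the 8 genes took 0.0154% to 0.0155% of all normalized counts in Ctrl, 0.0394% to 0.0433% in LPS, 0.0200% to 0.0213% in Eff and 0.0415% to 0.0485% in LPSEff.

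LPS vs Ctrl and LPSEff vs Eff, which share no samples, ask how the inflammatory stimulus acts on naïve and on efferocytic Mϕ. In naïve Mϕ, 12.4% of all tested genes were called higher and 11.6% lower, and in efferocytic Mϕ 10.7% and 8.95%. Among the MS4A genes, 5 passed the filter on low values in their unstimulated samples alone (Ms4a4a, Ms4a6b, Ms4a6c, Ms4a6d and Ms4a7), and these 5 rose in both naïve and efferocytic Mϕ. Their median difference was 1.73 in naïve and 1.95 in efferocytic Mϕ, beside -0.01 and 0.01 over all tested genes. Of the other 2, which were tested only because they were high after stimulation, Ms4a4c was called in both contrasts and Ms4a4b in naïve Mϕ. Without the LPS 2 sample, 4 genes were called in naïve Mϕ. Because the normalized totals were higher in the stimulated samples, rescaling all samples to equal totals moved the median of all genes to -0.40 and -0.44 and the shares called higher and lower in naïve Mϕ to 8.71% and 26.5%. All 7 MS4A genes were still higher under that scale, and only Ms4a7 lost its calls there, with adjusted p = 0.0537 in naïve and 0.0509 in efferocytic Mϕ (limma).

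**Figure D3:**
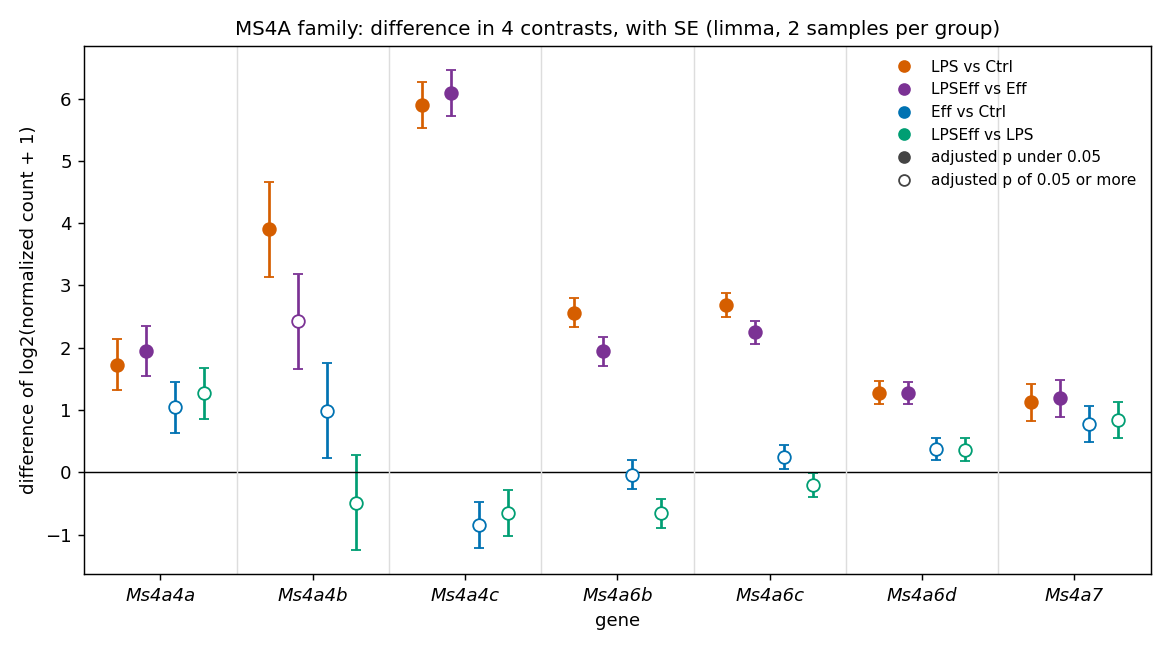
Difference of log2(normalized count + 1) with its SE for the 7 tested MS4A genes in 4 contrasts (limma, n = 2 per group). Filled points have an adjusted p under 0.05 and open points do not. Every LPS/IFNγ difference is above 0, with Ms4a4c at 5.90 and 6.09, whereas the efferocytosis differences lie on both sides of 0 and are all open.

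Of the 4A type, Ms4a4c showed the largest rise. It is an interferon-inducible MS4A gene of myeloid cells. Ms4a4c stood at 7.62 and 5.2 normalized counts in Ctrl, 334 and 566 in LPS, 2.63 and 3.53 in Eff, with 306 and 249 in LPSEff. All stimulated samples were far above all unstimulated ones. The log2 difference was 5.90 ± 0.37 in naïve (adjusted p = 5.12e-05, limma) and 6.09 ± 0.37 in efferocytic Mϕ (adjusted p = 3.56e-05, limma). Since the unstimulated levels rest on 13 reads in Ctrl and 8 in Eff, the ratio of pooled reads per depth was also taken, which does not use the filter and was 80.4 (95% interval 46.8 to 152) from 815 reads in LPS and 90.7 (45.7 to 211) from 582 reads in LPSEff. These intervals and the floors given here cover counting error only.

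Ms4a4b, best known from T cells, where it modulates activation together with the receptor GITR, was a low gene in these cells. Ms4a4b stood at 0 and 2.31 normalized counts in Ctrl, 23.3 and 29.4 in LPS, 4.38 and 1.41 in Eff, with 19 and 17.8 in LPSEff. The stimulated samples did not overlap the unstimulated ones. Its log2 difference was 3.90 ± 0.76 in naïve Mϕ (adjusted p = 0.00802, limma) and 2.43 ± 0.76 in efferocytic Mϕ, where it missed the threshold (adjusted p = 0.0593, limma). With the replicate number as a block, Ms4a4b passed there as well (adjusted p = 0.0215, limma), as did 19% of all genes in this direction, and it also passed with edgeR (adjusted p = 0.0309) and DESeq2 (adjusted p = 0.0322) on recovered reads. These fits used the same filtered genes, so that for Ms4a4b none of them is independent evidence. The ratio of pooled reads was 15.1 (95% interval 5.51 to 57.6) from 47 against 4 reads in naïve and 6.77 (2.99 to 18.0) from 38 against 7 reads in efferocytic Mϕ. The T cell genes Cd3e, Cd3d and Cd3g lay between 0 and 6.47 normalized counts in all samples. Lck, a kinase best known from T cells, moved with Ms4a4b, from 3.81 and 5.78 in Ctrl to 29.7 and 49.8 in LPS, and from 3.51 and 7.76 in Eff to 28.5 and 25.4 in LPSEff. Lck, too, passed the filter only through its stimulated samples. Of the 5 tested genes of the 10-gene T cell list, 2 rose (Lck and Cd247) and 1 fell in LPS vs Ctrl. The gene that fell was Cd28, at 615 and 465 normalized counts in Ctrl and 60.8 and 45.7 in LPS. Cd28 stood at 472 and 385 in Eff, with 79.2 and 67.3 in LPSEff. The summed level of the list was 724 to 889 in Ctrl, 662 to 1605 in LPS, 669.7 to 1234 in Eff and 614 to 945 in LPSEff.

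Ms4a4d, the close copy with the least RNA, was not tested. It had 0 reads in both Ctrl samples, 7.76 and 5.08 normalized counts in LPS, 0 and 0.706 in Eff, with 7.92 and 1.27 in LPSEff. The stimulated samples lay above the unstimulated ones in both settings. LPSEff 2 and Eff 2 held 1 read each, however, so that their values differ only through the size factors. The 11 reads in LPS stood 4.70-fold above a floor of 3 reads over the Ctrl group. This is a point value that leaves out the counting error of the 11 reads. The 95% intervals of the pooled levels were 3.12 to 11.2 normalized counts in LPS and 0 to 1.64 in Ctrl. In efferocytic Mϕ, 11 reads stood against 1, a ratio of 13.7 with a 95% interval of 1.99 to 591. Of these 11 reads, 10 came from LPSEff 1.

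Ms4a4a is a surface protein of alternatively activated Mϕ that associates with the β-glucan receptor Dectin-1. It was the gene of the 4A type with no 50-base stretch shared with another gene. Ms4a4a stood at 24.8 and 17.3 normalized counts in Ctrl, 69.8 and 72.1 in LPS, 60.5 and 31.8 in Eff, with 229 and 129 in LPSEff. In both settings the stimulated samples were above the unstimulated ones, but Eff 1 came close to the LPS samples. The log2 difference was 1.73 ± 0.41 in naïve (adjusted p = 0.0179, limma) and 1.95 ± 0.41 in efferocytic Mϕ (adjusted p = 0.0123, limma). Without Ctrl 2, LPS 1 or LPS 2 the adjusted p of Ms4a4a in naïve Mϕ was 0.103, 0.0612 or 0.0645, and without Eff 2 or LPSEff 1 that in efferocytic Mϕ was 0.0779 or 0.0925.

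The 3 genes of the 6A type rose together. Ms4a6b stood at 38.1 and 35.3 normalized counts in Ctrl, 213 and 231 in LPS, 36.8 and 34.6 in Eff, with 131 and 149.8 in LPSEff. Replicates of Ms4a6b lay close to each other and the stimulated samples were several times higher. Its log2 difference was 2.56 ± 0.23 in naïve (adjusted p = 0.000248, limma) and 1.95 ± 0.23 in efferocytic Mϕ (adjusted p = 0.000956, limma), that is 6.05-fold and 3.94-fold between group means. Ms4a6c stood at 156 and 123 normalized counts in Ctrl, 918 and 875 in LPS, 165 and 163 in Eff, with 833 and 731 in LPSEff. The log2 difference of Ms4a6c was 2.68 ± 0.19 in naïve (adjusted p = 8.29e-05, limma) and 2.24 ± 0.19 in efferocytic Mϕ (adjusted p = 0.00017, limma), or 6.42-fold and 4.77-fold. The exons of Ms4a6c overlap those of the antisense RNA gene BE692007 over 3751 bases. BE692007 itself stood at 62.8 and 55.5 normalized counts in Ctrl, 361 and 406 in LPS, 61.3 and 71.3 in Eff, with 329 and 339 in LPSEff. The counting tool separates strands in its default mode, but how far reads of Ms4a6c and BE692007 were kept apart was not tested.

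Ms4a6d is a Mϕ protein reported to act with the complement receptor Vsig4 to dampen the NLRP3 inflammasome. Ms4a6d stood at 695 and 759 normalized counts in Ctrl, 1905 and 1637 in LPS, 879 and 1001 in Eff, with 2404 and 2151 in LPSEff. Although it started highest, the stimulated samples were all above the unstimulated ones. The log2 difference was 1.28 ± 0.18 in naïve (adjusted p = 0.0017, limma) and 1.28 ± 0.18 in efferocytic Mϕ (adjusted p = 0.002, limma), a 2.44-fold and 2.42-fold change. Ms4a6d was thus raised by less than its relatives Ms4a6b and Ms4a6c on this scale, a difference between genes that was not tested.

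Ms4a7 is a marker of tissue Mϕ, among them those at the borders of the brain, and is low in resting microglia. Ms4a7 stood at 103 and 127 normalized counts in Ctrl, 194 and 322 in LPS, 171 and 225 in Eff, with 397 and 506 in LPSEff. In both settings the stimulated samples were higher, while Eff 2 lay above LPS 1. The log2 difference was 1.12 ± 0.29 in naïve (adjusted p = 0.0269, limma) and 1.19 ± 0.29 in efferocytic Mϕ (adjusted p = 0.0242, limma). The call in naïve Mϕ was lost without Ctrl 1 (adjusted p = 0.142), Ctrl 2 (0.0691) or LPS 2 (0.124) and with only the 2 groups compared in the fit (0.0582), and that in efferocytic Mϕ was lost when any of the 4 samples compared was left out (adjusted p from 0.0542 to 0.143, limma).

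**Figure D4:**
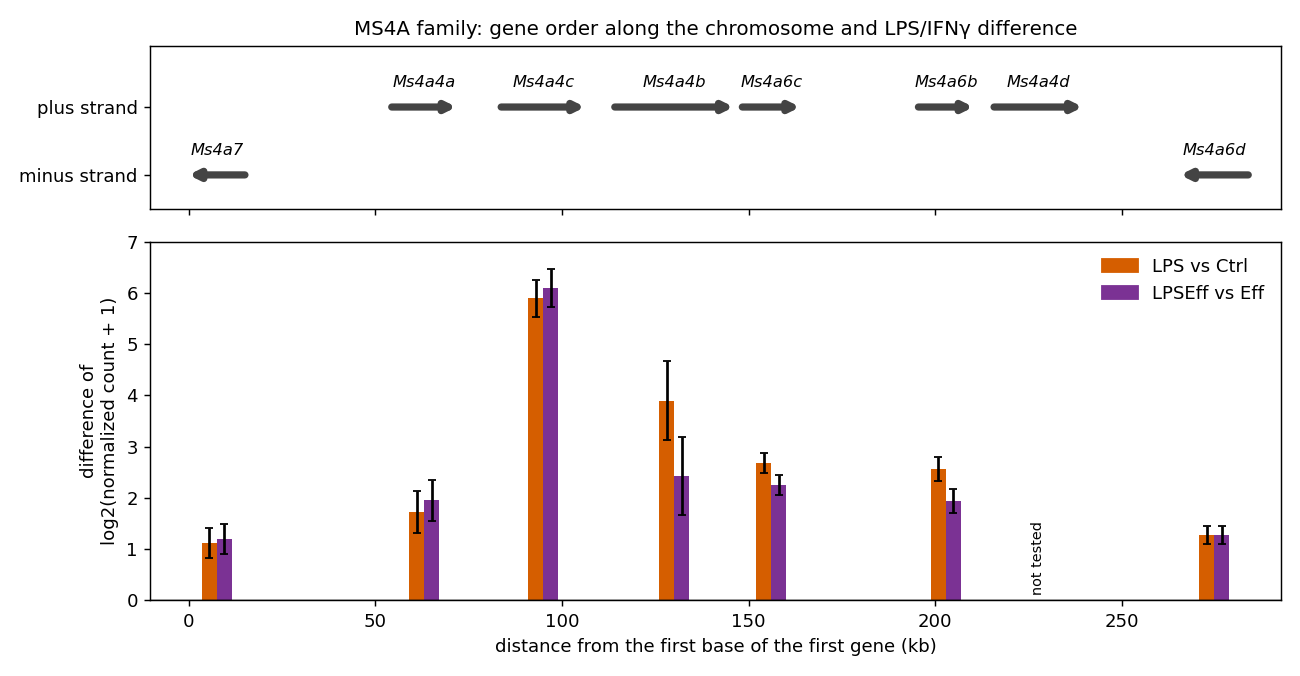
Order and strand of the 8 MS4A genes along the chromosome (top, arrows point in the direction of transcription) and their LPS/IFNγ difference of log2(normalized count + 1) with its SE in naïve and efferocytic Mϕ (bottom), against the distance in kb from the first base of the first gene. The bars are tallest at Ms4a4c and lowest at the outer genes, Ms4a7 and Ms4a6d. Ms4a4b missed the threshold in LPSEff vs Eff.

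Along the chromosome, the differences were largest for the inner genes and smallest for Ms4a7 and Ms4a6d at the ends. Among the genes within 250 kb of the family's span that are not MS4A genes, 3 of 23 were tested and 1 rose with LPS/IFNγ in each setting. The efferocytic and naïve responses were then compared directly as an interaction. None of the 7 MS4A genes passed, with 0 of them under an unadjusted p of 0.05 in limma, edgeR and DESeq2, and 0% of all 16309 genes passed. Across all genes, 311 had an unadjusted p under 0.05 in limma, 369 in edgeR and 244 in DESeq2. The largest interactions were -1.47 ± 1.08 for Ms4a4b, -0.62 ± 0.33 for Ms4a6b and -0.44 ± 0.27 for Ms4a6c, and the others lay between 0.00 and 0.22 in size. The median over the 7 was 0.00, beside 0.01 over all tested genes.

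Eff vs Ctrl and LPSEff vs LPS ask what the preceding co-culture did to the MS4A genes without and with the stimulus. In limma without a block, 0 of the 7 tested genes passed in either contrast, where 0.251% and 0.773% of all tested genes passed. At an unadjusted p under 0.05 there were 3 of 7 in each, where 6.13% and 10.3% of all genes were. edgeR and DESeq2 also called 0 of the 7, with 0.0858% and 0.773% of all genes called in edgeR and 1.27% and 2.26% in DESeq2. The median of the 7 was 0.37 in Eff vs Ctrl, against -0.20 in LPSEff vs LPS, beside -0.01 and 0.00 over all tested genes. These contrasts share samples with those of LPS/IFNγ, so that each gene's own values are given.

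Ms4a7 and Ms4a4a had the largest positive differences with efferocytosis that went the same way in both replicates. For Ms4a7, the log2 difference was 0.77 ± 0.29 in Eff vs Ctrl (adjusted p = 0.684, limma), against 0.84 ± 0.29 in LPSEff vs LPS (adjusted p = 0.353, limma), and the groups did not overlap in either contrast. Samples of the same number gave 0.73 and 0.82 for Ms4a7 in Eff vs Ctrl, with 1.03 and 0.65 in LPSEff vs LPS. With the replicate number as a block, Ms4a7 rose in both (adjusted p = 0.0395 and 0.0161, limma), where 1.70% and 4.32% of all genes were called higher. When 1 sample was left out, the differences of Ms4a7 ranged from 0.57 to 0.97 and from 0.48 (without LPS 1) to 1.20. For Ms4a4a, the difference was 1.05 ± 0.41 in Eff vs Ctrl (adjusted p = 0.727, limma), against 1.27 ± 0.41 in LPSEff vs LPS (adjusted p = 0.298, limma), again without overlap. Samples of the same number gave 1.25 and 0.84 for Ms4a4a in Eff vs Ctrl, with 1.70 and 0.84 in LPSEff vs LPS. Leaving out 1 sample gave 0.59 (without Eff 1) to 1.5 for Ms4a4a in Eff vs Ctrl, and 0.86 to 1.68 in LPSEff vs LPS. With the block, Ms4a4a rose in LPSEff vs LPS (adjusted p = 0.0258, limma) but not in Eff vs Ctrl (adjusted p = 0.091, limma).

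The other tested genes were not called in either contrast, with or without the block. Ms4a6d was 1.29-fold higher between group means in both contrasts, with log2 differences of 0.37 ± 0.18 and 0.36 ± 0.18 (adjusted p = 0.884 and 0.555, limma) and no overlap between groups. Ms4a6b had -0.04 ± 0.23 in Eff vs Ctrl, with overlapping samples, and -0.66 ± 0.23 in LPSEff vs LPS, where both efferocytic samples were lower (adjusted p = 0.361, limma). Ms4a6c had 0.24 ± 0.19 and -0.20 ± 0.19 in the 2 contrasts (adjusted p = 0.999 and 0.820, limma). Ms4a4c had -0.85 ± 0.37 in Eff vs Ctrl, from 8 against 13 reads, and -0.65 ± 0.37 in LPSEff vs LPS (adjusted p = 0.804 and 0.622, limma). Ms4a4b, with 4 and 7 reads in the unstimulated groups, had 0.98 ± 0.76 and -0.49 ± 0.76 (adjusted p = 0.999 and 0.917, limma), and Ms4a4d overlapped in both contrasts. Under equal totals the signs of all 7 genes in both contrasts were the same.

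Fibroblast marker genes moved with efferocytosis in the same samples. Of 12 such genes, among them collagens, 10 were tested and 6 were called higher in each efferocytosis contrast. Fbn1 was called only in Eff vs Ctrl and Dcn only in LPSEff vs LPS. Col3a1 and Dcn passed the filter only through their efferocytic samples, so that their calls are no independent evidence. Thy1 and Pdgfrb were lower in LPSEff than in LPS without a call. In LPS vs Ctrl, where no fibroblasts were added, 3 of the 10 (Col5a1, Pdgfrb and Fbn1) rose as well, or 8 with the block, and Pdgfrb also rose in LPSEff vs Eff. The summed level of the 12 genes was 179 to 367 normalized counts in Ctrl and 2021 to 3654 in Eff, and 925 to 959.7 in LPS and 5093 to 5924 in LPSEff, with none of the 12 at 0 throughout. Where these transcripts came from, and their part in the MS4A values of the Eff and LPSEff samples, was not tested. Markers of dendritic cells summed to 4425 to 9347 in Ctrl, 10441 to 22923 in LPS, 2629 to 5937 in Eff and 8147 to 12517 in LPSEff, and of 5 tested genes 2 rose in LPS vs Ctrl and 1 in LPSEff vs Eff (4 and 3 with the block). With efferocytosis all 5 were lower in both contrasts, 0 were called in limma, and with the block 1 fell in Eff vs Ctrl and 2 fell in LPSEff vs LPS. The block called 20.5% of all genes higher and 20.7% lower in LPS vs Ctrl, 19% and 18% in LPSEff vs Eff, 1.70% and 0.975% in Eff vs Ctrl, and 4.32% and 2.65% in LPSEff vs LPS. Neutrophil markers summed to 643 to 973 in Ctrl, 1465 to 1719 in LPS, 1054 to 1401 in Eff and 1584 to 2091 in LPSEff. Of 5 tested, 1 rose in LPS vs Ctrl and 1 in Eff vs Ctrl, and with the block 3 rose in LPS vs Ctrl, 2 in LPSEff vs Eff and 1 in each efferocytosis contrast. B cell markers summed to 83.1 to 155 and natural killer cell markers to 6.35 to 28.5 over all samples, with 1 of 7 and 0 of 6 tested and 0 called in limma. The part of these cells in the MS4A values was not tested either. Of the 10 Mϕ markers, 3 rose in LPS vs Ctrl, 4 in LPSEff vs Eff and 0 with efferocytosis.

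The remaining MS4A genes were mostly low. Of 13 other Ms4a genes and the relatives Tmem176a and Tmem176b, 4 reached the filter. Ms4a14 stood at 9.52 and 17.3 normalized counts in Ctrl, 34.9 and 56.9 in LPS, 23.7 and 29.6 in Eff, with 45.1 and 85.0 in LPSEff, and rose by 1.71 ± 0.46 in naïve Mϕ (adjusted p = 0.0306, limma). Tmem176a stood at 28.6 and 52.6 in Ctrl, 85.4 and 135 in LPS, 36.8 and 39.5 in Eff, with 64.9 and 62.2 in LPSEff, and rose by 1.45 ± 0.37 in naïve Mϕ (adjusted p = 0.0235, limma). Tmem176b lay between 104 and 522 and Ms4a3, a gene of neutrophil precursors, between 2.82 and 20.2, and neither passed in any contrast without the block. In LPSEff vs Eff 0 of the 4 passed in limma, and with the block 3 rose in LPS vs Ctrl and 2 in LPSEff vs Eff. The B cell gene Ms4a1 had a mean of 3.50 and the mast cell gene Ms4a2 one of 2.73 over all samples.

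Genes whose products are known to work with MS4A proteins were followed as a list of 12 receptors and signalling proteins, of which 11 were tested. In LPS vs Ctrl 6 rose and 1 fell, in LPSEff vs Eff 5 rose and 1 fell, and 0 passed with efferocytosis in limma, although 1 (Tnfrsf18, which encodes GITR) fell in both efferocytosis contrasts with the block (adjusted p = 0.0125 and 0.0146, limma). With the block, 6 rose and 3 fell in LPS vs Ctrl, and 7 rose and 3 fell in LPSEff vs Eff. Tnfaip3, which encodes the NF-κB inhibitor A20, rose by 3.77 ± 0.29 in naïve and 3.70 ± 0.29 in efferocytic Mϕ. Nlrp3, the sensor of the inflammasome, rose by 2.91 ± 0.28 and 2.95 ± 0.28. The kinase Jak2 rose by 2.45 ± 0.32 and 2.75 ± 0.32, and the growth factor receptor Kit fell by 1.86 ± 0.26 and 1.93 ± 0.26 on the log2 scale. Vsig4, the partner named for Ms4a6d, was at most 1.90 normalized counts in any sample and was not tested. All 20 interferon-responsive genes rose in both LPS/IFNγ contrasts, with medians of 5.12 and 5.63. In Eff vs Ctrl 0 of these 20 passed in limma and 19 were lower in Eff (median -0.65), and in LPSEff vs LPS 0 passed (median -0.02). With the block, 7 of the 20 fell in Eff vs Ctrl and 1 fell in LPSEff vs LPS. Of 16 genes of alternatively activated and resident Mϕ, the type for which Ms4a4a is known, 9 were tested, of which 1 rose and 1 fell in LPS vs Ctrl, 1 rose in LPSEff vs Eff and 0 passed with efferocytosis in limma. The gene that rose in both was Il10, which encodes an anti-inflammatory cytokine and passed the filter only through its stimulated samples (1.90 and 0 normalized counts in Ctrl, 45.3 and 10.2 in LPS, 0.876 and 0 in Eff, with 219 and 73.6 in LPSEff). With the block, 2 of these 9 rose and 7 fell in LPS vs Ctrl, 2 rose and 2 fell in LPSEff vs Eff, 1 fell in Eff vs Ctrl and 4 rose in LPSEff vs LPS.

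Across the 8 samples, the 7 tested genes went up and down together to different degrees. Pearson's r of their log2 values ranged from 0.68 between Ms4a6b and Ms4a7 to 0.984 between Ms4a4c and Ms4a6b. It was 0.89 for the close copies Ms4a4b and Ms4a4c, 0.981 for Ms4a6b and Ms4a6c, and 0.849 for Ms4a4a and Ms4a7. All pairs share the stimulated and unstimulated groups of the same 8 libraries, and r is given as a description. Among all tested genes, the 2 most like Ms4a4c were Herc6 and Sp100 (r = 0.997 each). The nearest to Ms4a6c were Dhx58os and Gng4 (0.997 each) and those to Ms4a6b were Intu (0.997) and Cd47 (0.996). Ms4a6d was closest to an unnamed gene (ENSMUSG00000067085, 0.994) and Zkscan17 (0.992). For Ms4a7 they were Abcb1a (0.987) and Il1rap (0.984), for Ms4a4a Snora61 (0.986) and Gm21399 (0.979), and for Ms4a4b 4933412E12Rik (0.982) and Jag1 (0.98).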

How the data were processed

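RNA-seq covered 8 BMDM samples, 2 for each of 4 groups, grouped by the sample titles. The authors depleted rRNA, trimmed single-end reads of 50 cycles with cutadapt, filtered out rRNA (bowtie2), aligned the rest to the mm39 genome by STAR and ran htseq-count in default mode. Tool versions and the annotation release are not given in the sources used here. The deposited signal is the normalized count, reads divided by a size factor of DESeq2. In each sample 100% of values were whole multiples (tolerance 0.01) of 1 step, which gave the recovered reads. Of 55359 identifiers 54749 had a name in GENCODE M39 (GRCm39).

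limma 3.58.1 (R 4.3.3, trend) was fitted to the log2 of the normalized count plus a pseudocount of 1 for the 16309 genes that averaged at least 10, with 4 group means and 4 residual degrees of freedom, and adjusted after Benjamini-Hochberg (two-sided, threshold 0.05). With 2 samples on each side, the smallest p of an exact permutation test is 0.333. The p-values measure the spread between these samples only, which may be technical. edgeR 4.0.16 and DESeq2 1.42.0 were run on the recovered reads as alternatives. Across 16309 genes, the difference of replicate 2 from replicate 1 correlated between groups with r of 0.404 to 0.595 over all 6 pairs of groups. The numbers come from the titles, and the fit with the number as a block had 3 residual degrees of freedom.

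The members and lists were chosen with earlier results of these data known. Named are the 8 genes, other Ms4a genes with a mean of at least 10, the 4 listed partners with the largest LPS/IFNγ difference, listed partners and alternative-activation genes that passed with efferocytosis, and the 2 most alike genes per member. Others outside this rule were chosen after their values were seen: Lck, Cd28, Cd247, Col3a1, Col5a1, Dcn, Fbn1, Pdgfrb, Thy1, Il10, Cd3e, Cd3d, Cd3g, BE692007, Tnfrsf18, Vsig4, Ms4a1 and Ms4a2. Alternatives were other pseudocounts, filters, scalings, tools, fits and leaving out each sample.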

Additional observations from a re-analysis of the deposited data

Results flagged for a closer look

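For Ms4a6c, the 2 contrasts of efferocytosis pointed in opposite directions in every sample. Both Eff samples (165 and 163 normalized counts) were above both Ctrl samples (156 and 123), whereas both LPSEff samples (833 and 731) were below both LPS samples (918 and 875). The test of the difference between the contrasts gave -0.44 ± 0.27 on the log2 scale with an unadjusted p of 0.144 and an adjusted p of 1.00 (limma, n = 2 per group), so that it did not pass. Neither contrast alone passed, with 0.24 ± 0.19 and -0.20 ± 0.19 (SE).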

How the results depend on the processing

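Of 94 alternative counts of members called, 89 stayed within 1.5 times of the value reported, or at 0 where that value was 0. It was 0 in Eff vs Ctrl, LPSEff vs LPS and the interaction, where a count could stay only at 0. Without LPS replicate 2, 4 MS4A genes were called in LPS vs Ctrl, since Ms4a4a and Ms4a7 missed the threshold and Ms4a4b fell under the filter on low values. Leaving out each sample in turn gave 4 to 7 calls in LPS vs Ctrl, 4 to 7 in LPSEff vs Eff and 0 in the other contrasts. With the replicate number as a block, 1 gene passed in Eff vs Ctrl, 2 passed in LPSEff vs LPS, and edgeR with the replicate block gave the same counts. The block changed no other call of the 7 genes than these and that of Ms4a4b in LPSEff vs Eff. Of the members' single differences, 599 kept direction and side of the threshold, 15 gained and 15 lost a call, and 18 changed sign, all of them small. These were Ms4a6b in Eff vs Ctrl (-0.092 to 0.016 when samples were left out) and the interactions of Ms4a4a (-0.23 to 0.68), Ms4a4c (-0.18 to 0.58), Ms4a6d (-0.11 to 0.11) and Ms4a7 (-0.30 to 0.43). The interaction of Ms4a4c was -0.15 with a pseudocount of 5, that of Ms4a6d 0.0043 in edgeR with the replicate block and that of Ms4a7 -0.018 after quantile normalization. The cause was not tested. Depth limits Ms4a4b and Ms4a4d most, which had between 0 and 29 reads per sample.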
